A study of Rattus norvegicus with 6 samples.

Results

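Smooth muscle contractile genes encode the actin, myosin and regulatory proteins with which the muscle of airway and vessel walls shortens. In smooth muscle, phosphorylation of the myosin light chain lets myosin pull on actin, and transcription of the contractile genes is driven largely by serum response factor with its partner myocardin. In the lung these genes mark the muscle layers of bronchi and pulmonary vessels, and pericytes and myofibroblasts share some of them. The set was a fixed list of 8 genes: Acta2, Myh11, Tagln, Cnn1, Des, Actg2, Lmod1 and Smtn. Probes were found by the gene name on the array, with older synonyms accepted. Of the 8 genes, 7 had a probe, out of 25225 genes tested in all, and 2 of them (Myh11 and Smtn) had 2 probes each, which made 9 probes. No probe was found for Acta2, the smooth muscle alpha actin, by name, synonym or accession, so it has no value here. Myh11 was found through the description of 2 probes whose name is a transcript identifier.

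The values are from the right lungs of male Wistar rats, 9 weeks old at the start, that stayed in a whole-body chamber for 6 hours a day, 5 days a week, during 4 weeks. The 6 groups, with the number of 1-colour arrays compared, were ultrafine NiO (4 arrays), C60 fullerene (4) and fresh air control (4) at 1 month, which the labels give as 33 days after the end of exposure, and NiO (4), C60 (2) and control (3) at 3 days. C60 fullerene is a closed cage of carbon atoms, and NiO (nickel oxide) was the positive control of the study. All lungs were rinsed with saline through the vessels before RNA extraction, and females and other strains were not covered. That 1 array is 1 rat was read from the numbers in the labels, so the p-values rest on the spread of arrays within groups. Each slide held 1 group, and each time had its own scan day, and differences between groups cannot be told apart from slide, nor those between times from scan day. For C60 at 3 days 4 arrays came with a label of n = 2, and the first 2, which match the authors' deposited ratios, were used.

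A value below is the log2 of the probe's processed signal minus the 75th percentile of its array, so 0 is the level of the 75th percentile. Probes differ in brightness, so levels are compared between groups for 1 probe and never between genes. A gene is called, or said to rise or fall, where its p in limma was under 0.05 after Benjamini-Hochberg adjustment over all genes tested. All 7 measured genes passed the filter on dim probes. The probe used for each was well above background on 21 of 21 arrays, and none was saturated. All 9 lung markers (among them Sftpc, Scgb1a1 and Ager) were well above background on every array. In whole lung, fewer muscle cells and less RNA per muscle cell cannot be told apart.

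The probes are 60 bases long. Those of Tagln, Smtn and Myh11 are printed 5′ to 3′, because Tagln was called lower at 3 days after both particles and because Smtn and Myh11 are each read by 2 probes. Their positions are those in the scanner files, on build rn4, and no annotation of that build was used to place them in exons.
Tagln, chr8:48902736-48903116, minus strand: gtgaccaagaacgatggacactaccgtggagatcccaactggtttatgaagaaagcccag
Smtn, brighter probe, chr14:84160797-84160856, minus strand: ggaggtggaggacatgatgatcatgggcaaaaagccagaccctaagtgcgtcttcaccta
Smtn, dimmer probe, chr14:84169175-84169234, minus strand: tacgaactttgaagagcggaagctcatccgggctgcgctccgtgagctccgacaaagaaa
Myh11, brighter probe, chr10:769508-769567, plus strand: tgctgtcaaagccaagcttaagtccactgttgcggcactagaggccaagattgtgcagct
Myh11, dimmer probe, chr10:719479-719538, plus strand: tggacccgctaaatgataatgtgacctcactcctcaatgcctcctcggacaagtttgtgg
The Tagln probe is listed over 381 bases, which is longer than the probe itself. The brighter probe of a gene stood for the gene.

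Few of the contractile genes were called after either particle with the 75th percentile as the scale. At 1 month none of the 7 was called after NiO (30.8% of all genes), and only Smtn was, higher, after C60 (19.8% of all genes). With the array median as the scale more of the 7 were called at 1 month, as were more of all genes (39.3% for NiO and 33.8% for C60). At 3 days Tagln was lower after both NiO and C60, and Lmod1 was lower after NiO at an adjusted p close to the threshold. Of all genes 18.8% were called for NiO and 4.93% for C60 at 3 days. Both particles were set against the same control arrays at each time, so their comparisons are not independent of each other.

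**Figure D1:**
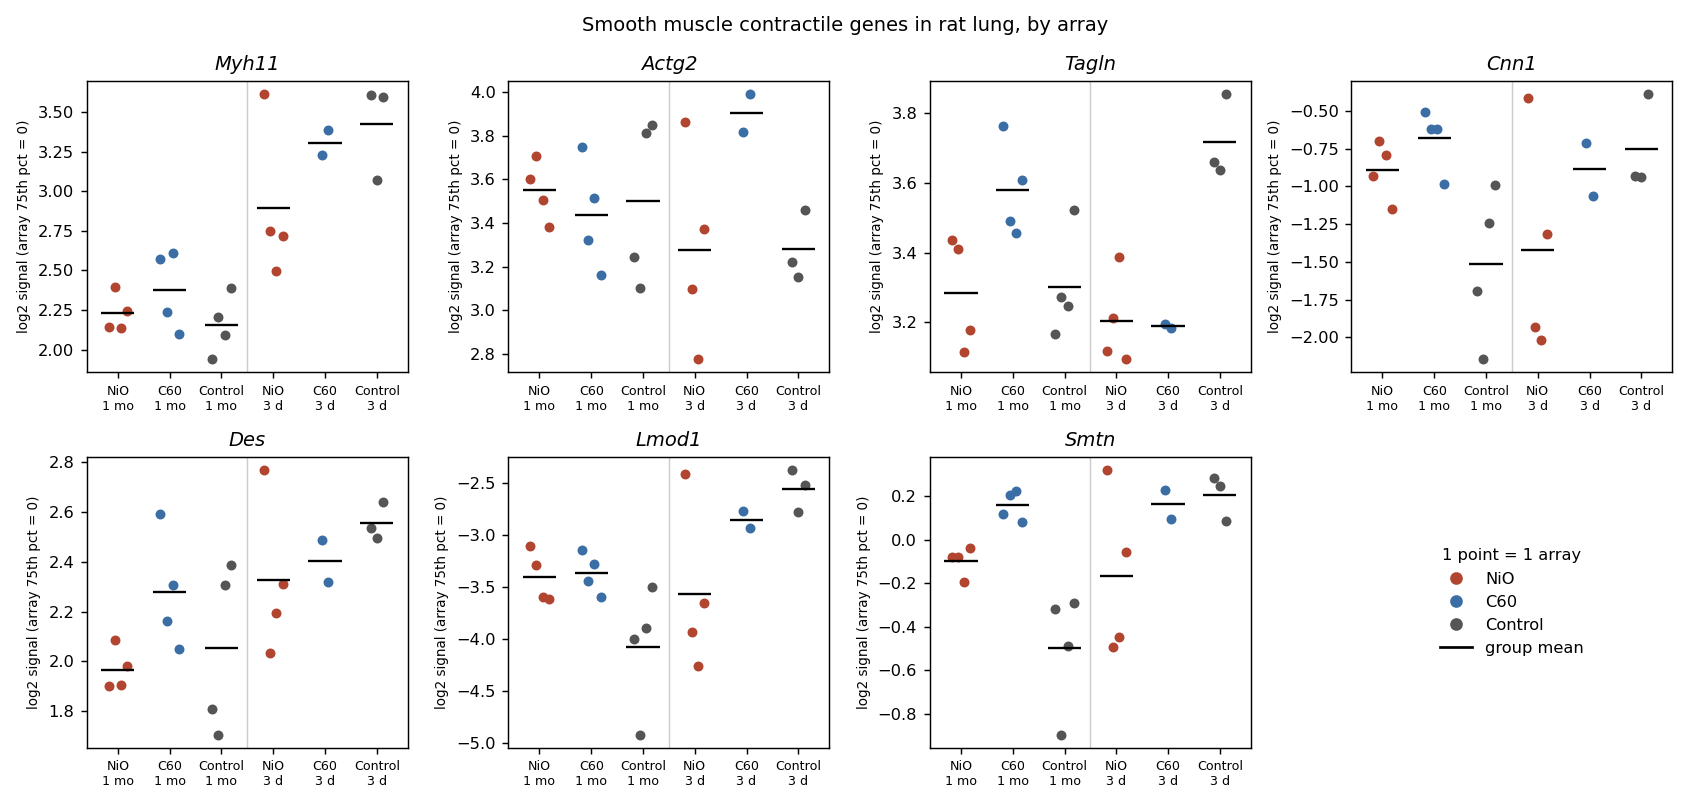
Log2 signal of the 7 measured contractile genes (y axis, array 75th percentile at 0, each panel with its own range) on the 21 arrays compared, by group (x axis); 1 point is 1 array and the bar is the group mean. Tagln on the 4 NiO and 2 C60 arrays at 3 days lies below all 3 control arrays, and Smtn on the 4 C60 arrays at 1 month lies above all 4 control arrays.

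Tagln encodes transgelin, an actin-bundling protein of the calponin family. At 3 days it measured 3.12, 3.21, 3.39 and 3.10 on the NiO arrays and 3.20 and 3.19 on the C60 arrays, against 3.66, 3.64 and 3.85 on the control arrays. All 6 exposed arrays lay below all 3 control arrays. The log2 fold was -0.51 for NiO (SE 0.12; limma adjusted p = 0.00646), that is 0.701-fold of control, and -0.53 for C60 (SE 0.14; limma adjusted p = 0.0335), or 0.694-fold. The NiO call held whichever array was left out (adjusted p 0.00527 to 0.0407), and it was lost when only the compared groups were fitted (adjusted p = 0.0777). The C60 call was lost without any 1 of the 3 control or 2 C60 arrays (adjusted p 0.0533 to 0.172), with the array median as the scale (0.057) and with the compared groups only (0.0661). The 2 C60 arrays not used read 2.86 and 2.65, and with all 4 the log2 fold was -0.74 (adjusted p = 0.00124). At 1 month Tagln measured 3.44, 3.41, 3.12 and 3.18 on NiO arrays, 3.76, 3.49, 3.46 and 3.61 on C60 arrays, and 3.17, 3.27, 3.25 and 3.52 on control arrays. All 3 of these groups overlapped at 1 month except that every NiO array lay below every C60 array. The log2 folds over control were -0.02 for NiO (adjusted p = 0.914) and 0.28 for C60 (adjusted p = 0.0726).

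Lmod1 encodes leiomodin, which starts new actin filaments in smooth muscle. At 3 days it measured -2.41, -3.93, -4.25 and -3.65 on the NiO arrays, against -2.37, -2.77 and -2.51 on the control arrays. NiO array 1 lay among the controls and the other three lay below all of them. The log2 fold was -1.01 (SE 0.35; limma adjusted p = 0.0496). This call was lost in 18 of the 21 fits that left out 1 array, and without NiO arrays 2 and 3 the log2 fold was -0.48 (adjusted p = 0.514). Normexp background correction gave -0.32 (adjusted p = 0.108). The 2 C60 arrays at 3 days read -2.77 and -2.93, with a log2 fold over control of -0.30 (adjusted p = 0.812). At 1 month Lmod1 measured -3.10, -3.29, -3.60 and -3.62 after NiO and -3.14, -3.44, -3.27 and -3.60 after C60, against -4.00, -4.92, -3.89 and -3.49 in control. Control array 2 was the lowest of all 21 arrays compared, and the groups overlapped. The log2 folds were 0.68 for NiO (adjusted p = 0.113) and 0.71 for C60 (adjusted p = 0.117).

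Smtn encodes smoothelin, which binds actin in contractile smooth muscle cells. At 1 month the brighter probe measured -0.08, -0.08, -0.20 and -0.04 after NiO and 0.12, 0.20, 0.23 and 0.08 after C60, against -0.32, -0.90, -0.49 and -0.29 in control. Both exposed groups lay wholly above the control arrays, and C60 wholly above NiO. The log2 fold was 0.66 for C60 (SE 0.16; limma adjusted p = 0.00989), or 1.58-fold of control, and 0.40 for NiO (SE 0.16; limma adjusted p = 0.0593). The C60 call held whichever array was left out (adjusted p 0.00245 to 0.0329), and with the mean of both probes it was lost (adjusted p = 0.0806). On the 3-day arrays it measured 0.32, -0.50, -0.45 and -0.05 after NiO and 0.23 and 0.09 after C60, against 0.28, 0.24 and 0.09 in control. The log2 folds at 3 days were -0.37 for NiO (adjusted p = 0.122) and -0.04 for C60 (adjusted p = 0.956).

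Cnn1 encodes calponin, an actin-binding inhibitor of the myosin motor. It measured -0.93, -0.70, -0.79 and -1.15 after NiO and -0.51, -0.62, -0.62 and -0.99 after C60 at 1 month, against -1.69, -2.14, -1.24 and -0.99 in control. C60 arrays lay just above all control arrays, and NiO arrays overlapped with them. The log2 folds were 0.62 for NiO (adjusted p = 0.113) and 0.83 for C60 (adjusted p = 0.0551). On the 3-day arrays it measured -0.41, -1.93, -2.02 and -1.31 after NiO and -0.71 and -1.06 after C60, against -0.93, -0.94 and -0.39 in control, with log2 folds of -0.67 (adjusted p = 0.147) and -0.13 (adjusted p = 0.927).

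Myh11 encodes the smooth muscle myosin heavy chain, the motor protein itself. Its brighter probe averaged 2.23 ± 0.12 after NiO, 2.38 ± 0.25 after C60 and 2.16 ± 0.19 in control at 1 month (SD, n = 4 each). At 3 days it averaged 2.89 ± 0.49 after NiO (n = 4) and 3.31 ± 0.11 after C60 (n = 2), against 3.42 ± 0.30 in control (n = 3). NiO array 1 at 3 days read 3.61, level with the highest control array, and the other three read 2.75, 2.50 and 2.72. With the main settings no particle comparison called this probe. The log2 fold for NiO at 3 days was -0.53 (SE 0.22, limma adjusted p = 0.089). Without NiO array 1 it was -0.77 and was called (limma adjusted p = 0.00233). Over the 9 other settings the limma adjusted p ran from 0.0468 to 0.614, so this result lies near the threshold.

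Des encodes desmin, the muscle intermediate filament, and Actg2 the gamma actin of smooth muscle. Des averaged 1.97 ± 0.09 after NiO, 2.28 ± 0.23 after C60 and 2.05 ± 0.34 in control at 1 month (SD, n = 4 each), and 2.33 ± 0.32 (NiO, n = 4), 2.40 ± 0.12 (C60, n = 2) and 2.56 ± 0.07 (control, n = 3) at 3 days. Neither gene was called for either particle. Actg2 averaged 3.55 ± 0.14 after NiO, 3.44 ± 0.25 after C60 and 3.50 ± 0.38 in control at 1 month. Its 3-day averages were 3.28 ± 0.46 after NiO, 3.90 ± 0.12 after C60 and 3.28 ± 0.16 in control. The log2 fold of Actg2 for C60 at 3 days was 0.62 (SE 0.27; limma adjusted p = 0.229), and both C60 arrays used (3.82 and 3.99) lay above all control arrays. The 2 C60 arrays not used read 2.94 and 2.90, below all controls, and with all 4 the log2 fold was 0.13 (adjusted p = 0.825).

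The counts of called genes are set here beside those of all genes tested. For NiO over control at 1 month 0 of 7 were called in limma (3 at an unadjusted p under 0.05), where 30.8% of all genes were called, 11.9% higher and 18.9% lower. For C60 over control at 1 month 1 of 7 was called and higher, where 19.8% of all genes were called, 7.29% higher and 12.5% lower. For NiO over control at 3 days 2 of 7 were called and lower, where 18.8% of all genes were called, 11% higher and 7.81% lower. For C60 over control at 3 days 1 of 7 was called and lower, where 4.93% of all genes were called, 2.95% higher and 1.98% lower. The arrays of particle and control did not overlap for 1 of 7 genes for NiO (37.1% of all genes) and 2 of 7 for C60 (27.7%) at 1 month, and for 1 of 7 for NiO (23.1%) and 3 of 7 for C60 (45%) at 3 days. The median log2 fold of the 7 genes was 0.07 for NiO and 0.28 for C60 at 1 month, and -0.51 for NiO and -0.13 for C60 at 3 days. The median over all genes was -0.12 for NiO and -0.09 for C60 at 1 month, and 0.04 for NiO and -0.03 for C60 at 3 days. Scaling moves these medians: with the array median in place of the 75th percentile, the median of all genes at 1 month was 0.21 for NiO, a shift of 0.34, and 0.22 for C60, a shift of 0.31. Relative to the median of all genes, all 7 lay above it for both particles at 1 month and all 7 below it for NiO at 3 days. These counts are the same under both of these scalings by construction, because a change of scale moves all genes of an array alike. With quantile normalization 5 of 7 lay above it for NiO and 6 of 7 for C60 at 1 month, and 6 of 7 below it for NiO at 3 days. With normexp background correction 6 of 7 lay above it for NiO and 7 of 7 for C60 at 1 month, and 7 of 7 below it for NiO at 3 days. The counts also depend on the probe that stands for Myh11. Its dimmer probe lay below the median of all genes at 1 month, with log2 folds of -0.91 for NiO and -1.21 for C60. With the array-median scaling 4 of 7 were called for NiO (39.3% of all genes, 30.5% higher) and 5 of 7 for C60 (33.8% of all genes, 26.6% higher) at 1 month, all higher, so the calls at 1 month depend on the scaling.

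**Figure D2:**
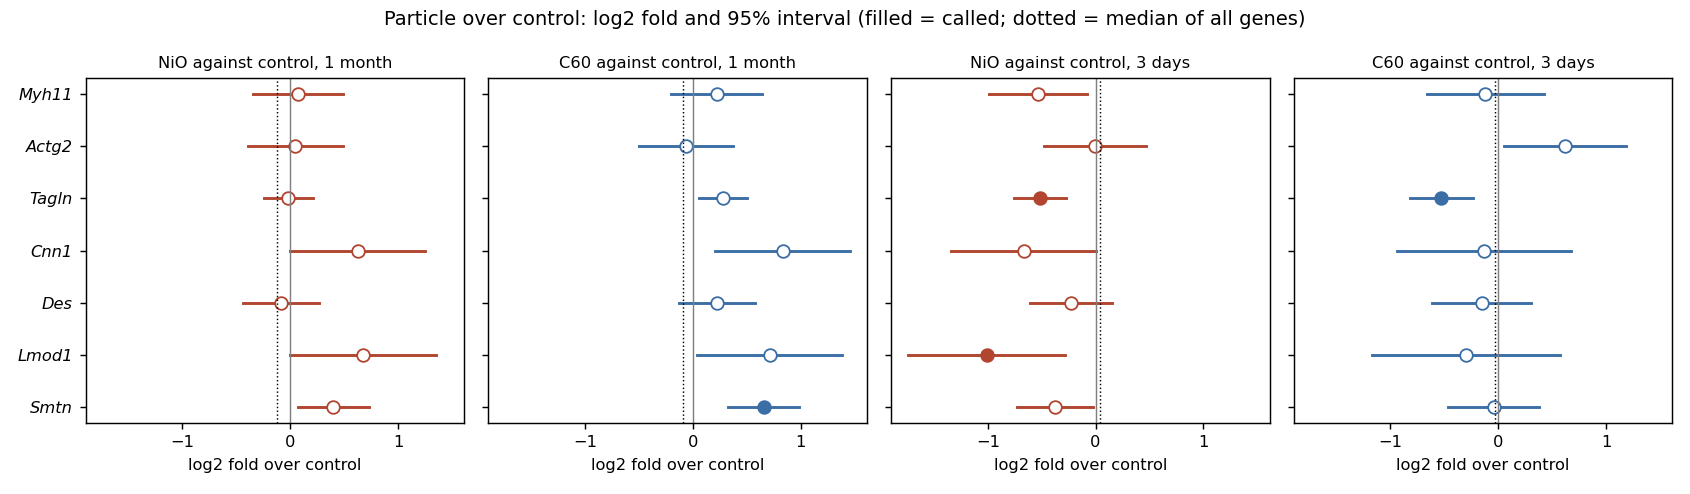
Log2 fold over control (x axis) of the 7 measured contractile genes (rows) for NiO and C60 at 1 month and at 3 days; points are limma estimates, lines their 95% intervals, filled points were called, and the dotted line is the median of all genes. Filled points are Smtn for C60 at 1 month, Tagln and Lmod1 for NiO and Tagln for C60 at 3 days.

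NiO and C60 were also set against each other. None of the 7 genes was called at 1 month (limma; 1 at an unadjusted p under 0.05, where 1.22% of all genes were called) or at 3 days (1 at an unadjusted p under 0.05, where 7.72% were called). At 1 month Tagln was the one below that p, with a log2 fold of NiO over C60 of -0.30 (95% interval -0.52 to -0.07; limma adjusted p = 0.275). At 3 days it was Actg2, with -0.63 (95% interval -1.16 to -0.09; limma adjusted p = 0.128). The intervals of the other genes include differences of up to 1.54 on the log2 scale, as the lower bound for Lmod1 at 3 days was -1.54, so these data do not show that both particles acted alike on them. Without NiO array 1 of 3 days, 5 of 7 were called lower after NiO than after C60 at 3 days, where 28.4% of all genes were called in that fit and 10.6% were lower.

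The effect over control differed between the times for several members. The difference of the NiO effect, 1 month minus 3 days, was called for 4 of 7, all positive, where 37.5% of all genes were called and 14.4% were positive. It was 1.69 for Lmod1 (SE 0.47; limma adjusted p = 0.0128), 0.77 for Smtn (adjusted p = 0.0164), 0.50 for Tagln (adjusted p = 0.022) and 1.29 for Cnn1 (adjusted p = 0.029). The call of Cnn1 was lost without control array 3 (adjusted p = 0.0803), NiO array 2 (0.0637) or NiO array 3 (0.0634) of 3 days, or without control array 2 (0.0628) or NiO array 2 (0.0542) of 1 month, and with the compared groups only (0.0579). That of Tagln was lost without control array 3 of 3 days (0.0657). Without NiO arrays 2 and 3 of 3 days only Tagln of these 4 was called (0.59; adjusted p = 0.0306). The difference of the C60 effect was called for Tagln, at 0.80 (SE 0.17; limma adjusted p = 0.00799), where 10.4% of all genes were called and 4.2% were positive. The control slides moved with these differences. For control at 1 month over control at 3 days 5 of 7 were called, all lower, where 18.4% of all genes were called lower and 46.1% were called in either direction. The log2 fold of control at 1 month over control at 3 days was -1.27 for Myh11 (SE 0.22; limma adjusted p = 0.000187), -1.52 for Lmod1 (adjusted p = 0.00187) and -0.70 for Smtn (adjusted p = 0.00275). For Tagln it was -0.42 and for Des -0.50. In NiO lungs 1 of 7 was called between the times, Myh11 at -0.66 (adjusted p = 0.0133), where 41.6% of all genes were called and 22.2% were lower at 1 month. In C60 lungs Myh11 was lower at 1 month (log2 fold -0.93; adjusted p = 0.0108) and Tagln higher (log2 fold 0.39; adjusted p = 0.0387), where 23.9% of all genes were called, 14.5% higher and 9.46% lower. With the slide mean as the unit, over both times, 0 of 7 were called for either particle (limma, 2 residual degrees of freedom; 0 at an unadjusted p under 0.05, and 0% of all genes called).

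By its brighter probe, Myh11 was called lower at 1 month than at 3 days in all 3 treatments. The order of its group means was control, C60 and NiO at 3 days, then C60, NiO and control at 1 month, with neighbours in that order overlapping. Lmod1 and Smtn shared another order: control and C60 at 3 days, C60 and NiO at 1 month, NiO at 3 days, and control at 1 month lowest. For Tagln the highest group mean was control at 3 days and the lowest C60 at 3 days, 0.53 apart.

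The second probes gave a different account for Myh11 and a like one for Smtn. The dimmer Myh11 probe averaged -2.33 ± 0.51 after NiO, -2.63 ± 0.32 after C60 and -1.41 ± 0.93 in control at 1 month (SD, n = 4 each). Control array 3 at 1 month read -0.20 with this probe, the highest of the 21 arrays. This probe was called lower for C60 at 1 month (log2 fold -1.21, SE 0.34; limma over probes, adjusted p = 0.0222), where the brighter probe was not called and stood at 0.22. For control at 1 month over control at 3 days it gave 0.74 (adjusted p = 0.109), against -1.27 from the brighter probe. Over the 21 arrays the values of both Myh11 probes had a Pearson r of -0.03, which describes these arrays only. For Smtn, r was 0.87, and the dimmer probe was well above background on 17 of 21 arrays. It gave log2 folds of 0.58 for C60 at 1 month (adjusted p = 0.234) and -0.89 for NiO at 3 days (adjusted p = 0.106).

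**Figure D3:**
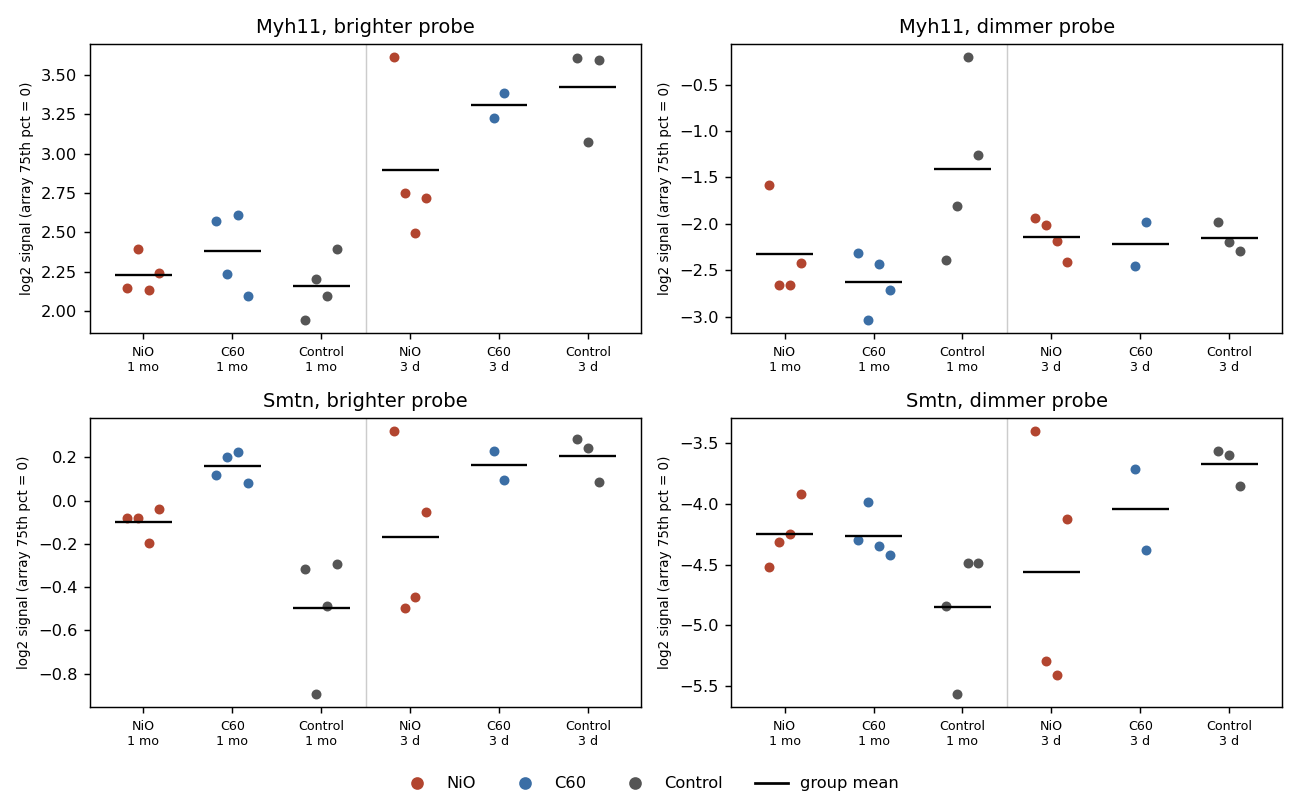
Log2 signal (y axis, array 75th percentile at 0) of the brighter and the dimmer probe of Myh11 and Smtn by group (x axis); 1 point is 1 array and the bar is the group mean. The brighter Myh11 probe is lower at 1 month than at 3 days in each treatment. The dimmer one has its highest group mean in control at 1 month, where its arrays range from -2.39 to -0.20 and overlap with other groups.

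Most of the 7 genes varied together from array to array within a group, and Tagln did not. Over 21 arrays, Pearson's r of the 21 pairs ranged from -0.13 to 0.88 with a median of 0.47. For deviations from the group means it ranged from -0.23 to 0.90 with a median of 0.70. Lmod1 followed the mean of the other members most closely (r = 0.94), and Tagln least (r = 0.33). The arrays share the scaling and the slides, so these values are descriptions with no test.

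**Figure D4:**
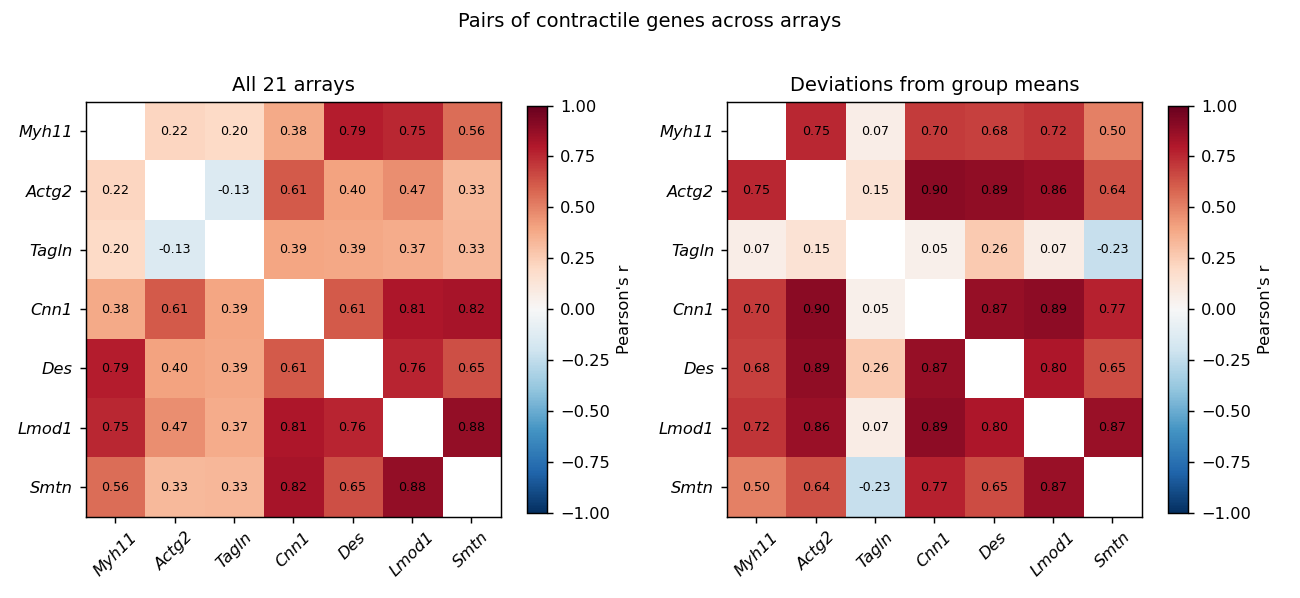
Pearson's r between pairs of the 7 measured contractile genes over the 21 arrays (left) and for deviations from group means (right); red is positive and blue negative. Tagln has the palest row, with values from -0.23 to 0.26 within groups.

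The mean of the 7 genes, each centred on its own mean over the arrays, shows where the spread came from. On the NiO arrays of 3 days it was 0.52, -0.36, -0.44 and -0.11, against 0.40, 0.24 and 0.50 on the control arrays. On the control arrays of 1 month it was -0.44, -0.70, -0.20 and 0.02. NiO array 1 of 3 days was thus the highest of all arrays, and control array 2 of 1 month the lowest. The 75th percentile of the processed signal of NiO arrays 2 and 3, at 372 and 336 intensity units, was the lowest of the 21 arrays, and NiO array 1 read 593. Among the other arrays control array 2 of 1 month had the lowest, at 502. The part of this brightness in the members' values was not tested. Without NiO array 1, 5 of 7 genes were called lower for NiO at 3 days, where 38.3% of all genes were called and 16% were lower. Without arrays 2 and 3 only Tagln was, where 6.27% of all genes were called and 2.31% were lower.

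**Figure D5:**
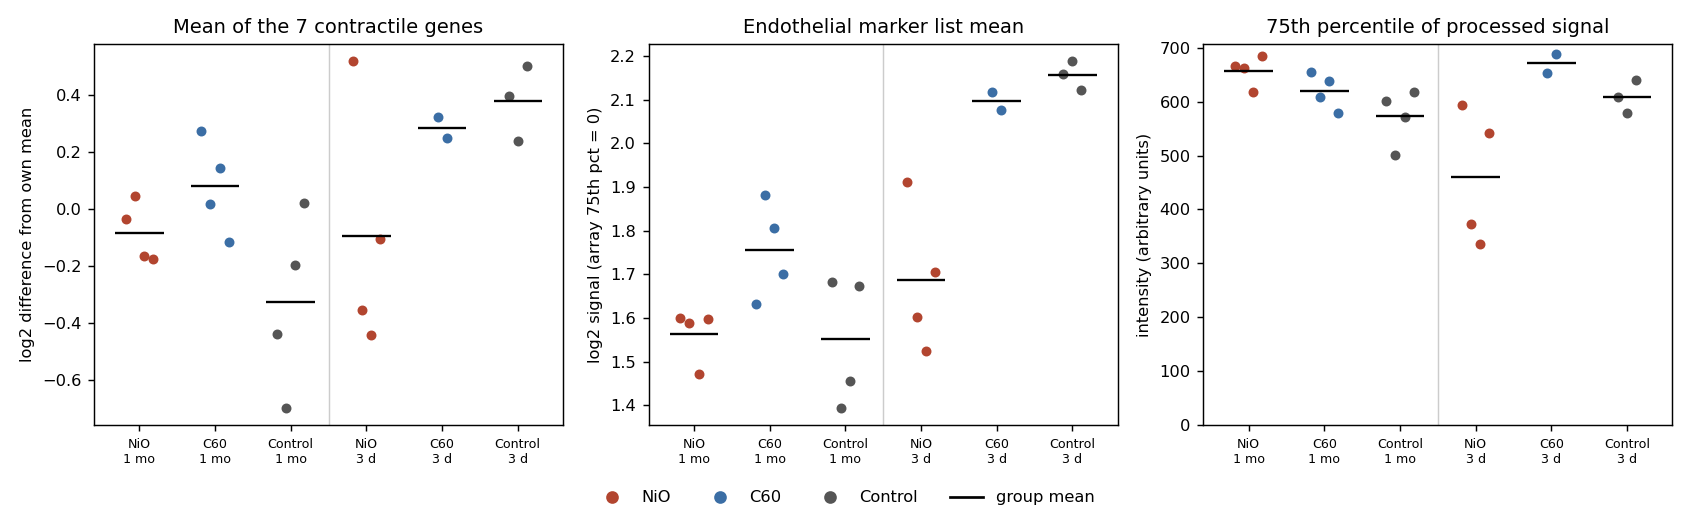
Measures of each array (points, grouped on the x axis, bar at the group mean): the mean of the 7 contractile genes as log2 difference from their own means, the mean log2 signal of 8 endothelial markers, and the array's 75th percentile of processed signal in intensity units. NiO arrays 2 and 3 at 3 days have the lowest 75th percentiles, 372 and 336.

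Markers of other cells were also called in some comparisons, and their counts are to be read beside the shares of all genes. At 1 month 11.9% of all genes were higher and 18.9% lower for NiO, and 7.29% higher and 12.5% lower for C60. At 3 days 11% were higher and 7.81% lower for NiO, and 2.95% higher and 1.98% lower for C60. In lists this short, a count near its share does not show a change in those cells. The mean of the 8 endothelial markers (Pecam1, Cdh5 and Vwf among them) ranged from 1.53 to 1.91 on NiO arrays at 3 days, against 2.12 to 2.19 in control. There 4 of 8 were called lower, with the largest log2 folds for Tie1 (-1.07), Plvap (-0.86) and Emcn (-0.63). For NiO at 1 month 1 was higher and 2 lower, and for C60 2 were higher at 1 month and none changed at 3 days. In control lungs at 1 month it ranged from 1.39 to 1.68. The 8 heart muscle markers measured, such as Myh6 and Myl7, had at least 7 members well above background on every array, with list means between 0.95 and 2.00 on the C60 arrays at 3 days and 2.16 to 2.99 on the control arrays, and none of them was called there; 1 was higher for C60 at 1 month and none changed for NiO. The mean of the 6 skeletal muscle markers measured was -0.67 and -1.08 on NiO arrays 1 and 3 of 3 days and between -3.05 and -1.85 on the other arrays compared. Of these 6, 2 were called higher after NiO at 3 days, Tnni2 (log2 fold 1.06; limma adjusted p = 0.0342) and Myh2, which was at least 3.41-fold higher (limma adjusted p = 0.00751), its probe being dim on all control arrays of that time. For NiO at 1 month 1 of the 6 was higher, and none changed for C60. Des is expressed in heart and skeletal muscle too. Of 8 pericyte markers 3 were lower for NiO at 1 month and 1 lower and 1 higher at 3 days; for C60 none changed at 1 month and 1 was higher at 3 days. Of 10 fibroblast markers 3 were lower for NiO at 1 month and 2 higher at 3 days, and for C60 none changed at 1 month and 3 were lower at 3 days. Of 7 markers of matrix made by myofibroblasts 1 was higher for NiO at 1 month and 2 at 3 days (Spp1, which macrophages also make, with log2 folds of 2.07 at 1 month and 2.32 at 3 days), and none changed for C60. Of 6 macrophage markers 2 were higher for NiO at 1 month and 1 at 3 days, and none changed for C60. Of 5 mesothelial markers 1 was higher and 1 lower at 1 month for NiO and also for C60; at 3 days 1 was lower for NiO and none changed for C60. The lower one at 1 month was Wt1, a mesothelial transcription factor. It passed the filter only through the control arrays of 1 month and was well above background on no NiO or C60 array. By the values it was at least 3.19-fold lower for NiO and at least 3.02-fold lower for C60. The filter picked Wt1 through the brighter group of these same comparisons, so its calls carry no weight and their p-values are left out. Of the 9 lung markers 1 was higher and 1 lower for NiO and 3 higher for C60 at 1 month, and 1 was higher and 3 lower for NiO and 1 lower for C60 at 3 days. The part of these cells in the members' values was not tested.

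The rest of the contractile apparatus was lower where called at 3 days, and at 1 month it changed in both directions with the 75th percentile as the scale but was higher where called with the array median. Of 25 measured genes of thin filaments, adhesion and myosin light chain control, 3 were higher and 3 lower for NiO at 1 month, 3 higher and 1 lower for C60 at 1 month, 0 higher and 5 lower for NiO at 3 days, and 0 higher and 4 lower for C60 at 3 days. With the array median as the scale, 10 were higher and 0 lower for NiO and 9 higher and 0 lower for C60 at 1 month, while at 3 days 0 were higher and 7 (NiO) and 1 (C60) lower. On that scale 30.5% of all genes were higher for NiO and 26.6% for C60 at 1 month. At 3 days 12.6% of all genes were lower for NiO and 1.59% for C60. With the 75th percentile the share of the list called was 24% for NiO and 16% for C60 at 1 month, beside 30.8% and 19.8% of all genes, and 20% for NiO and 16% for C60 at 3 days, beside 18.8% and 4.93% of all genes. Ppp1r14a, an inhibitor of myosin phosphatase known as CPI-17, averaged 3.16 ± 0.15 after NiO (n = 4) and 3.34 ± 0.12 after C60 (n = 2) at 3 days, against 4.00 ± 0.03 in control (SD, n = 3). Its log2 folds were -0.84 for NiO (limma adjusted p = 0.000478) and -0.66 for C60 (limma adjusted p = 0.0214), and the exposed arrays lay below all control arrays. Hspb6, a small heat shock protein of relaxing muscle, was lower for NiO at 3 days (log2 fold -1.06; limma adjusted p = 0.00732). Prkg1, the kinase through which cyclic GMP relaxes muscle, was dim: it was lower for NiO at 3 days (log2 fold -1.09; adjusted p = 0.00961; 1 of 4 NiO arrays well above background). For C60 it was at least 1.39-fold lower (adjusted p = 0.0286), with neither C60 array well above background. Myl9, the regulatory light chain of smooth muscle myosin, was lower for C60 at 3 days (log2 fold -0.56; limma adjusted p = 0.0443). At 1 month the intermediate filament gene Vim was higher for NiO (log2 fold 1.15; adjusted p = 0.000178). Flna, an actin cross-linker, was higher for NiO (log2 fold 0.86; adjusted p = 0.00238) and for C60 (log2 fold 0.65; adjusted p = 0.0164). Cald1, the actin-binding caldesmon, was lower for NiO (log2 fold -0.66; adjusted p = 0.0106). For C60, Actn1, an actin cross-linking alpha-actinin, was higher (log2 fold 0.41; adjusted p = 0.034), and Ppp1r12b, a myosin phosphatase subunit, was lower (log2 fold -0.51; adjusted p = 0.0366).

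Of the regulators of smooth muscle genes, a share near that of all genes was called after NiO. Of 12 measured, 2 were higher and 1 lower for NiO at 1 month, 1 higher and 1 lower for C60 at 1 month, 1 higher and 2 lower for NiO at 3 days, and 2 higher and 0 lower for C60 at 3 days. With the array median as the scale, 5 were higher and 1 lower for NiO and 5 higher and 0 lower for C60 at 1 month, and 1 was higher and 4 lower for NiO at 3 days, as with quantile normalization. With the array median, 30.5% of all genes were higher for NiO and 26.6% for C60 at 1 month, and 12.6% were lower for NiO at 3 days. With the 75th percentile the share of the list called was 25% for NiO and 16.7% for C60 at each time, beside 30.8% (NiO) and 19.8% (C60) of all genes at 1 month and 18.8% (NiO) and 4.93% (C60) at 3 days. Notch3, a receptor that maintains vascular smooth muscle and pericytes, averaged 3.62 ± 0.18 after NiO (n = 4) and 3.91 ± 0.33 after C60 (n = 2) at 3 days, against 2.60 ± 0.10 in control (SD, n = 3). Its log2 fold was 1.02 for NiO (limma adjusted p = 0.00011) and 1.31 for C60 (limma adjusted p = 8.29e-05). The control arrays of 3 days were the lowest of all 6 groups for this gene, and at 1 month it averaged 4.63 after NiO, 4.61 after C60 and 4.56 in control. Klf2, a flow-responsive factor of endothelium, was lower for NiO at 3 days (log2 fold -1.52; adjusted p = 0.00243), and Tead1, a partner of the Hippo pathway's YAP protein, was lower there (log2 fold -0.85; adjusted p = 0.0254). Gata6, a zinc finger factor, was higher for C60 at 3 days (log2 fold 0.45; adjusted p = 0.0433). At 1 month Tgfb1, which encodes a growth factor that induces contractile genes, was higher for NiO (log2 fold 0.74; adjusted p = 0.00103) and for C60 (log2 fold 0.55; adjusted p = 0.00932). Its receptor gene Tgfbr2 was higher for NiO (log2 fold 0.54; adjusted p = 0.00228). Hey2, a Notch target, was lower for NiO (log2 fold -0.77; adjusted p = 0.0091) and for C60 (log2 fold -0.59; adjusted p = 0.0428).

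Of the receptors and channels of smooth muscle, too, a share near that of all genes was called after NiO. Of 17 measured, 0 were higher and 4 lower for NiO at 1 month, 1 higher and 2 lower for C60 at 1 month, 0 higher and 3 lower for NiO at 3 days, and 1 higher and 1 lower for C60 at 3 days. The share of the list called was 23.5% for NiO and 17.6% for C60 at 1 month, beside 30.8% and 19.8% of all genes, and 17.6% for NiO and 11.8% for C60 at 3 days, beside 18.8% and 4.93%. The directions at 1 month depended on the scaling: with the array median 2 were higher and 1 lower for NiO and 7 higher and 1 lower for C60. On that scale 30.5% of all genes were higher and 8.85% lower for NiO, and 26.6% higher and 7.22% lower for C60. Chrm3, the muscarinic receptor through which acetylcholine contracts airways, was lower at 1 month for NiO (log2 fold -0.80; adjusted p = 0.00389) and for C60 (log2 fold -0.61; adjusted p = 0.0232). Ryr3, a calcium release channel, was lower at 1 month for NiO (log2 fold -1.91; adjusted p = 0.00518) and for C60 (log2 fold -2.48; adjusted p = 0.00205), where 2 of 4 C60 arrays were well above background. Agtr1a, an angiotensin receptor, and Cacna1c, a voltage-gated calcium channel, were lower for NiO at 3 days, with log2 folds of -0.53 (adjusted p = 0.0198) for Agtr1a and -0.41 (adjusted p = 0.00491) for Cacna1c. Ptgir, the prostacyclin receptor, was lower for NiO at 1 month (log2 fold -0.45; adjusted p = 0.0209) and higher for C60 at 3 days (log2 fold 0.69; adjusted p = 0.0299). Pde5a, which breaks down cyclic GMP, was higher for C60 at 1 month (log2 fold 0.47; adjusted p = 0.0499).

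The genes whose log2 values ran most like the mean of the 7 members, among 12000 with a symbol, were Rab34, Nxn, Fgfr1, Zfp787, Pde4a, Lmbr1l, Arsa and Bcl9l. Pearson's r over the 21 arrays was 0.92 to 0.93, and 0.86 to 0.94 for deviations from group means. None of them is in the lists of smooth muscle genes above. The values describe these arrays, which share scaling and slides. Nxn, for example, averaged -0.29 after NiO, -0.25 after C60 and -0.93 in control at 1 month, and -0.35 after NiO, 0.11 after C60 and 0.60 in control at 3 days.

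The authors' deposited table gives 1 ratio of each group over control per probe. These ratios follow the same arrays: over 20357 probes the median absolute log2 difference was 0.00082 (C60) and 0.00084 (NiO) at 3 days. At 1 month it was 0.00033 (C60) and 0.00032 (NiO). This match was not made on the scale of the folds above, so the ratios and those folds are not equal. Smtn for C60 at 1 month was 1.58-fold of control above and 1.96 in the deposited table. The C60 arrays of 3 days were chosen by that match. For Tagln and Smtn the ratios lay on the same side of 1 as the calls above, which is therefore no separate evidence. For Tagln at 3 days the authors' deposited table has 0.653 for NiO and 0.721 for C60, and for Smtn (brighter probe) at 1 month it has 1.68 for NiO and 1.96 for C60. The medians of those columns in the deposited table were 0.986 and 1.04 at 3 days and 1.13 and 1.13 at 1 month, so the columns are not centred alike.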

How the data were processed

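Per the labels, right-lung RNA carried Cy3 and was read on 1-colour rat arrays. The deposited scanner files hold spot intensity values that Agilent Feature Extraction 9.5.3.1 had corrected for background and spatial trend, per the file headers. The authors' deposited value table holds a linear ratio per probe and group; how the authors derived it is not stated, and no test used it.

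Of 23 arrays read, 21 were used. Log2 processed signal was scaled to each array's 75th percentile over 41012 probes. A probe stayed in if all arrays of some group had it well above background (28685 probes), and the brightest probe stood for a gene (25225 genes, 12007 with a symbol). Differences were tested with limma 3.58.1 (R 4.3.3) in 1 fit over the 6 groups (15 residual degrees of freedom). The fit was run on simulated data with independent noise for each gene and array. Those data had no slide effect and no genes varying together, so they cannot speak to either in these arrays. The number of arrays limits the precision.

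All members are named, and up to 3 called genes of each other list per particle comparison; marker lists of other cells are given mainly by counts and means, which departs from that rule. One receptor result and 1 probe sequence are not reported here. Probe names came from accessions and symbols through a rat gene table of assembly GRCr8 (10768 probes by main accession, 4999 by current symbol, 3351 by older symbol); 21427 probes stayed unnamed. The members and lists were chosen with earlier results of these data known. Alternatives covered background correction, scaling, filter, probe rule, arrays and samples in the fit. The comparisons between times within a treatment, and the fit without NiO arrays 2 and 3, were added after seeing the data.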

Additional observations from a re-analysis of the deposited data

Results flagged for a closer look

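For 5 results the effect of a particle over control differed between 1 month and 3 days by the test of that difference in limma (1 month minus 3 days). For NiO the difference was 1.69 for Lmod1, 1.29 for Cnn1, 0.774 for Smtn and 0.497 for Tagln. For C60 it was 0.805 for Tagln. In each case the fold over control was higher at 1 month than at 3 days, and the control arrays of both times, which enter every one of these differences, read lower at 1 month for all 4 of these genes (called for Lmod1, Smtn and Tagln, not for Cnn1). Of 36 sets of values of 1 probe in a group of 4 arrays, 0 had an outlying array by Dixon's criterion, which chance meets in about 1 set of 20.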

How the results depend on the processing

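The scaling bears most on the comparisons at 1 month. The number of all genes called moved under the same alternatives, and the counts of contractile genes are to be read beside it. It ran from 6109 to 10115 for NiO and 3116 to 8536 for C60 at 1 month. At 3 days it ran from 846 to 4907 for NiO and 850 to 2987 for C60. For the differences between times it ran from 3975 to 11267 (NiO) and 1474 to 5705 (C60). For NiO at 1 month the number of contractile genes called was 0 of 7, and 1 with normexp, 1 with quantile normalization, 4 with the array median, 1 with all 4 C60 arrays of 3 days and 2 without NiO arrays 2 and 3 of 3 days. For C60 at 1 month it was 1, and 3 with normexp, 2 with quantile normalization, 5 with the array median, 2 with only probes well above background on every array, 2 with all 4 C60 arrays, 0 with the mean of a gene's probes and 2 without NiO arrays 2 and 3. For NiO at 3 days it was 2, and it ran from 0 to 3 over the 9 other settings. It was 1 with normexp, 1 with no filter, 0 with the compared groups only and 1 without NiO arrays 2 and 3. For C60 at 3 days it was 1, and 0 with the array median and 0 with the compared groups only. The difference of the NiO effect between times was called for 4, and for 1 to 5 over the 9 other settings, with 1 without NiO arrays 2 and 3. That of the C60 effect was called for 1, and for 2 with the array median, 2 with all 4 C60 arrays and 2 without NiO arrays 2 and 3. Leaving out each array in turn gave 0 to 3 (NiO, 1 month), 1 to 3 (C60, 1 month), 1 to 5 (NiO, 3 days), 0 to 1 (C60, 3 days), 0 to 0 (NiO over C60, 1 month), 0 to 5 (NiO over C60, 3 days), 2 to 5 and 1 to 2 (differences of the NiO and C60 effects) and 0 to 0 (slide means). Among all genes those fits called 5299 to 9706 (NiO) and 2478 to 7201 (C60) at 1 month, and 2238 to 9706 (NiO) and 744 to 1743 (C60) at 3 days. For NiO over C60 they called 135 to 437 at 1 month and 575 to 7197 at 3 days. For the differences they called 7222 to 13185 (NiO) and 1323 to 4032 (C60). With the array median 3 negative log2 folds at 1 month became positive: Tagln for NiO read 0.32 (limma adjusted p = 0.043), and Des for NiO (0.25) and Actg2 for C60 (0.24) were called under neither scaling. Tagln for NiO over C60 at 3 days, also not called, read -0.14 with the array median and 0.01 with the 75th percentile. Of all genes tested, 4746 were called for NiO at 3 days, and 846 with the compared groups only and 1586 without NiO arrays 2 and 3. For C60 at 1 month 4991 were called, and 8536 with the array median (78.7% higher, against 36.8%), 3116 with the compared groups only and 7532 without NiO arrays 2 and 3. For C60 at 3 days 1244 were called, and 2987 with all 4 C60 arrays. For NiO over C60 308 were called at 1 month (195 with the array median, 196 with no filter, 630 with the compared groups only) and 1948 at 3 days (1068 with normexp, 1258 with every array above background, 5998 with all 4 C60 arrays, 63 with the compared groups only, 749 without NiO arrays 2 and 3). The NiO difference between times called 9453 (3975 without NiO arrays 2 and 3), and the C60 difference 2624 (1474 with normexp, 4147 with the array median, 5705 with all 4 C60 arrays, 4316 without NiO arrays 2 and 3). For NiO at 1 month the share of higher calls was 38.7%, and 55.5% with quantile normalization and 77.5% with the array median; for NiO at 3 days it was 58.5%, and 45.6% and 34.6%. For C60 at 1 month quantile normalization gave 55.4% and normexp 52.4%. For NiO over C60 at 3 days the share was 64.9%, and 51.9% with quantile normalization and 48.8% with the array median. For the NiO difference it was 38.6%, and 60.2% and 76.2%, and for the C60 difference 40.4%, and 51.9% and 75.9%. The cause of these shifts was not tested. No paired analysis was possible because the labels carry no replicate numbers, and slide could not be a block because each slide held 1 group. The second Smtn probe, not well above background on 4 arrays, is limited by signal.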
